A study of Mus musculus with 12 samples.

Results

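The expression of 5 enzymes that dispose of ammonia or feed nitrogen into its disposal was followed in mouse liver over the course of a fast. They are argininosuccinate synthetase (Ass1), argininosuccinate lyase (Asl), ornithine aminotransferase (Oat), proline dehydrogenase (Prodh) and glutamine synthetase (Glul). Each was represented by 1 fixed probe, so that 5 of the 20280 gene probes on the array were followed, chosen by name. The livers came from male FVB mice of 6 weeks of age, which were either fed or had been without chow for 12, 24 or 72 h, with 6 mice a group. The fasted animals were kept in metabolic cages and were warmed by an infrared lamp from 24 h of fasting onwards. Each array was hybridised with Cy3-labelled RNA pooled from 2 livers, which gave 3 arrays a group, and with a Cy5-labelled reference pooled from all 6 fed livers. The fed samples therefore contributed to the reference against which they were read. No dye swap was made, and an array is a pool, so that the spread between arrays is not the spread between mice.

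Amino-acid breakdown releases ammonia, which the liver removes by a high-capacity route upstream in the lobule and a high-affinity route at its end. In periportal hepatocytes the urea cycle joins ammonia and the nitrogen of aspartate into urea, with Ass1 and Asl forming and splitting argininosuccinate. In the hepatocytes around the central vein, Glul scavenges the ammonia that escaped, and Oat channels ornithine towards glutamate, its substrate. Prodh opens the mitochondrial breakdown of proline, which converges with the Oat reaction on the same intermediate. The question addressed was whether the messenger RNAs of these enzymes changed together when endogenous protein became the nitrogen source.

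The probes were A_65_P01164 for Ass1 (Entrez gene 11898), A_65_P10827 for Asl (109900), A_65_P13102 for Oat (18242), A_65_P01676 for Prodh (19125) and A_65_P17263 for Glul (14645). Asl was labelled with the clone name 2510006M18Rik, and Glul with the older symbol Glns, in 3 of the 12 scanner files. In the mouse genome build GRCm38.p6 the genes lie at chr2:31470270-31520670 (Ass1), chr5:130011258-130024381 (Asl), chr7:132557475-132576398 (Oat), chr16:18071726-18089283 (Prodh) and chr1:153899929-153909723 (Glul). All 5 probes were well above background on every array and passed the filter on dim probes, and none was saturated.

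The promoter windows of the members are shown because the members' fasting responses are compared below gene by gene. They hold the bases directly upstream of the annotated start, from RefSeq on GRCm38.p6, and read 5′ to 3′ on the strand of the gene. Asl is named only. Capitals mark matches, on either strand, to 6 short motifs, namely the CCAAT box, the GC box GGGCGG, the cAMP-response core TGACG, the E-box CACGTG, the glucocorticoid-response core TGTTCT and the TATA box TATAAA. The windows are chr2:31470020-31470269 on the plus strand for Ass1, chr7:132576399-132576648 on the minus strand for Oat, chr16:18089284-18089440 on the minus strand for Prodh and chr1:153899679-153899928 on the plus strand for Glul.
Ass1: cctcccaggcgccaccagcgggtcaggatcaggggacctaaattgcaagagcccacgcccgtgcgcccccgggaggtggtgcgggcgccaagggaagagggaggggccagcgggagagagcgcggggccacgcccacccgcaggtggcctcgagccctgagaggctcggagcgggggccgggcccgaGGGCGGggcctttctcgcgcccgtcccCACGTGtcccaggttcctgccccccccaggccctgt
Oat: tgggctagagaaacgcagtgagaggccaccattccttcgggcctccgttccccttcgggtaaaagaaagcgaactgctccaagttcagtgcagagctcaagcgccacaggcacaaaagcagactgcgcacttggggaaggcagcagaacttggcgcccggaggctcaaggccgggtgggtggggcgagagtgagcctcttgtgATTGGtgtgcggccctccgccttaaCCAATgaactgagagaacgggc
Prodh: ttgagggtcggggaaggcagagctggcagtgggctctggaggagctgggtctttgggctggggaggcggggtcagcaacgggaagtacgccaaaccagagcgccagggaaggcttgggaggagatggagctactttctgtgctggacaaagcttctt
Glul: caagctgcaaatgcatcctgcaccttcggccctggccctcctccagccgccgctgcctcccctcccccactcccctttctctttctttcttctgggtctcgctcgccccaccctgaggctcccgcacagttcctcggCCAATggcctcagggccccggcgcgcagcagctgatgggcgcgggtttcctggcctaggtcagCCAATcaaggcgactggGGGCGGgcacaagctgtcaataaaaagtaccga
The Oat window held 2 CCAAT boxes, one on each strand, 47 and 22 bases before the start. The Glul window held 2 CCAAT boxes at 113 and 50 bases and a GC box at 33 bases, and the Ass1 window a GC box at 63 bases and an E-box at 36 bases. No match overlapped another. None of these letters occurred in the 157 bases available for Prodh, against 250 bases for the other 3 genes. Among 32851 annotated promoter windows, 33.8% held a CCAAT box, 32.7% a GC box, 6.02% the E-box, 17.8% TGACG, 16.1% TGTTCT and 12.4% TATAAA. The share of G and C was 75.6% for Ass1, 64.8% for Glul, 61.1% for Prodh and 60% for Oat, against a median of 52.4% over all windows. These are matches of letters only and carry no measurement of factor binding.

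A pair of arrays stood apart, namely replicate 2 of the 12 h-fasted group and replicate 3 of the 24 h-fasted group, and the members' fold changes are given with and without them. Their median sample signal was 4.72 and 3.5 times the local background, against 5.34 to 10.6 times on the other 10 arrays, and no probe was saturated on them, against 21 to 39 probes elsewhere. The summed signal of the 5 hepatocyte markers named on the array (Alb, Ttr, Apoa1, Trf and Fga, of 15 listed) was 23000 and 45200 on these arrays, against 195000 to 261000 on the other fasted and 261000 on the fed arrays. No marker was at 0, and albumin, the defining hepatocyte transcript, was saturated on every other array. Ttr, Apoa1 and Trf were saturated as well on the fed arrays, so that the sums there are a ceiling of the scanner. Fga itself was dim everywhere, at 46 to 281. Signals of the other marker lists were lower there as well, for example 839 to 904 summed over 5 of 15 macrophage and leukocyte markers, against 3420 to 15100 on the other fasted arrays. Their part in the results was not tested. The scanner files also carry 3 quantification days, of which the first holds fed replicates 2 and 3 and all 72 h arrays, the second the other 12 h and 24 h arrays, and the third fed replicate 1 with both low-signal arrays.

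**Figure D1:**
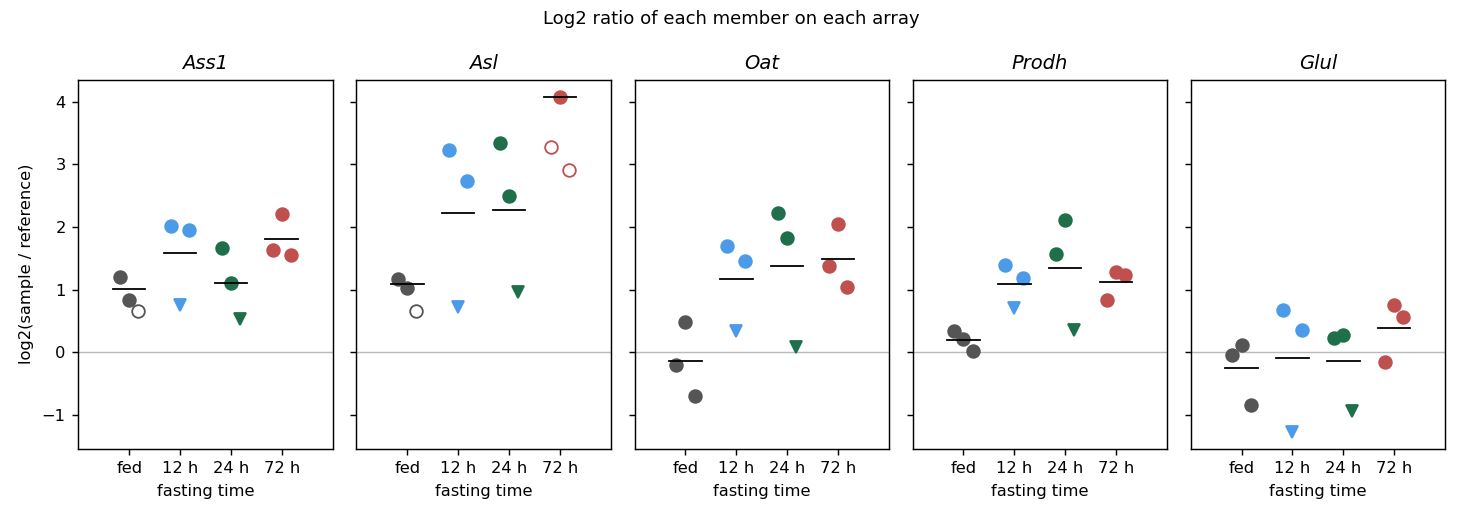
Log2 ratio of sample over reference (y axis) against fasting time (x axis) for each of the 5 members. Each point is 1 array, a triangle is a low-signal array, an open circle is a spot marked as an outlier by the scanner software, and the black line is the mean of the usable spots. The low-signal array lies lowest of its group for every member, and all 9 fasted arrays of Prodh lie above its 3 fed arrays.

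Asl, which splits argininosuccinate into arginine and fumarate, showed the widest range of the members. Its log2 ratio in the fed group was 1.17, 1.02 and 0.66 on replicates 1 to 3, where the last spot was marked as an outlier for a non-uniform reference channel. The 12 h-fasted arrays read 3.22, 0.73 and 2.74, and the 24 h-fasted arrays 3.34, 2.49 and 0.97. After 72 h the values were 3.28, 4.08 and 2.91, of which the first and the last carried the same outlier mark. Every fasted array except the 2 low-signal ones was thus far above all fed arrays, marked spots included, whereas the low-signal arrays fell among the fed values. With marked spots missing, 1 usable spot was left at 72 h, and the mean over all spots there was 3.42 ± 0.59 (SD, n = 3), against 4.08 for the usable one. The log2 fold change against fed was 1.14 ± 0.84 (SE) at 12 h, 1.17 ± 0.84 at 24 h and 2.98 ± 1.13 at 72 h, or 2.2-, 2.25- and 7.91-fold, and none passed the test (limma, adjusted p = 0.956, 1 and 1). Without both low-signal arrays Asl rose 3.7-fold at 12 h (95% interval 2.37 to 5.78), 3.53-fold at 24 h (2.26 to 5.52) and 7.91-fold at 72 h (4.58 to 13.7), with adjusted p of 0.025, 0.0136 and 0.014 in limma. The 72 h value rests on 1 array, the highest of its group, which the fit assumes to vary like the other groups. With all 3 marked and unmarked spots the log2 fold change at 72 h was 2.475 ± 0.678 over all arrays (adjusted p = 1) and 2.475 ± 0.300 without the low-signal arrays (adjusted p = 0.00603). In whole liver, a change in the number of cells that carry a transcript and in the amount per cell cannot be told apart.

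Ass1, which condenses citrulline with aspartate and precedes Asl in the cycle, moved less. The fed arrays read 1.20, 0.83 and 0.66, with the last spot marked as an outlier for a non-uniform sample channel. The 12 h-fasted arrays read 2.02, 0.76 and 1.95, the 24 h-fasted arrays 1.67, 1.10 and 0.53, and the 72 h-fasted arrays 1.64, 2.21 and 1.55. The 72 h arrays lay above all fed arrays, while the 24 h array of replicate 2 lay between the fed values, so that the groups overlapped at 24 h also without the low-signal array. The log2 fold change was 0.56 ± 0.44 at 12 h, 0.09 ± 0.44 at 24 h and 0.78 ± 0.44 at 72 h, with adjusted p of 0.956, 1 and 1. Over the remaining 10 arrays it was 0.97 ± 0.25, 0.37 ± 0.25 and 0.78 ± 0.23, or 1.96-, 1.29- and 1.72-fold, and the adjusted p of 0.0672, 0.337 and 0.15 missed the threshold. The corresponding 95% intervals were 1.33- to 2.88-fold, 0.879- to 1.9-fold and 1.21- to 2.45-fold. With outlier-marked spots kept as well, Ass1 passed at 12 h, where 2.15% of all probes were called in that direction.

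Oat, the mitochondrial enzyme that moves the amino group of ornithine to 2-oxoglutarate, read -0.20, 0.48 and -0.70 in the fed group. The 12 h-fasted arrays read 1.70, 0.34 and 1.45. The 24 h-fasted arrays read 2.22, 1.83 and 0.09, and the 72 h-fasted arrays 1.38, 2.05 and 1.05. No spot of Oat was marked as an outlier, and again only the low-signal arrays reached into the fed range. The log2 fold change was 1.30 ± 0.56, 1.52 ± 0.56 and 1.63 ± 0.56 at 12, 24 and 72 h, or 2.47-, 2.87- and 3.11-fold, with unadjusted limma p of 0.0403, 0.0202 and 0.0141 that did not survive adjustment (0.956, 1 and 1). With both low-signal arrays omitted, Oat rose 3.28-fold (1.97 to 5.46), 4.49-fold (2.7 to 7.47) and 3.11-fold (1.97 to 4.89), with adjusted p of 0.0301, 0.00792 and 0.0353.

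Prodh, which oxidises proline in mitochondria, read 0.34, 0.22 and 0.02 in the fed group. The 12 h-fasted arrays read 1.39, 0.70 and 1.19, the 24 h-fasted arrays 1.57, 2.11 and 0.35, and the 72 h-fasted arrays 0.84, 1.28 and 1.23. All 9 fasted arrays lay above all 3 fed arrays, although the lowest fasted value, of a low-signal array, exceeded the highest fed value only narrowly. Prodh was the 1 member of 5 with this separation, which 0.611% of all probes showed in the same direction. The log2 fold change was 0.90 ± 0.38, 1.15 ± 0.38 and 0.92 ± 0.38, or 1.86-, 2.22- and 1.9-fold, and the unadjusted p of 0.0361, 0.011 and 0.0323 did not survive adjustment (0.956, 1 and 1). Over the 10 arrays of regular signal Prodh rose 2.14-fold (1.6 to 2.85), 3.13-fold (2.35 to 4.18) and 1.9-fold (1.47 to 2.45), with adjusted p of 0.0238, 0.00275 and 0.0353.

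Glul, which forms glutamine from glutamate and ammonia, gave fed values of -0.04, 0.11 and -0.84. The 12 h-fasted arrays read 0.67, -1.27 and 0.35, the 24 h-fasted arrays 0.23, 0.27 and -0.93, and the 72 h-fasted arrays -0.16, 0.76 and 0.56. Fed and fasted values overlapped at each time point, at 12 and 24 h through the low-signal array alone, and the lowest values of the series were those of both low-signal arrays and of fed replicate 3. The log2 fold change was 0.18 ± 0.52, 0.11 ± 0.52 and 0.64 ± 0.52, with adjusted p of 0.975, 1 and 1. Leaving out both low-signal arrays gave 1.7-fold (1.08 to 2.69), 1.42-fold (0.899 to 2.24) and 1.56-fold (1.04 to 2.35). The adjusted p of 0.165, 0.274 and 0.33 missed the threshold, with upper bounds of 2.24- to 2.69-fold, so that these values do not show Glul to be unchanged. A second probe, A_65_P03762, was named Glul in 9 scanner files and as the pseudogene Glns-ps1 in 3, and its identity is uncertain. That probe read -0.01, -0.01 and 0.05 in the fed group and between -0.57 and 0.14 in the fasted groups. Its log2 fold change was -0.03 ± 0.23, -0.34 ± 0.20 and -0.06 ± 0.20, which gave adjusted p of 0.987, 1 and 1. Without the low-signal arrays it was -0.03, -0.28 and -0.06.

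**Figure D2:**
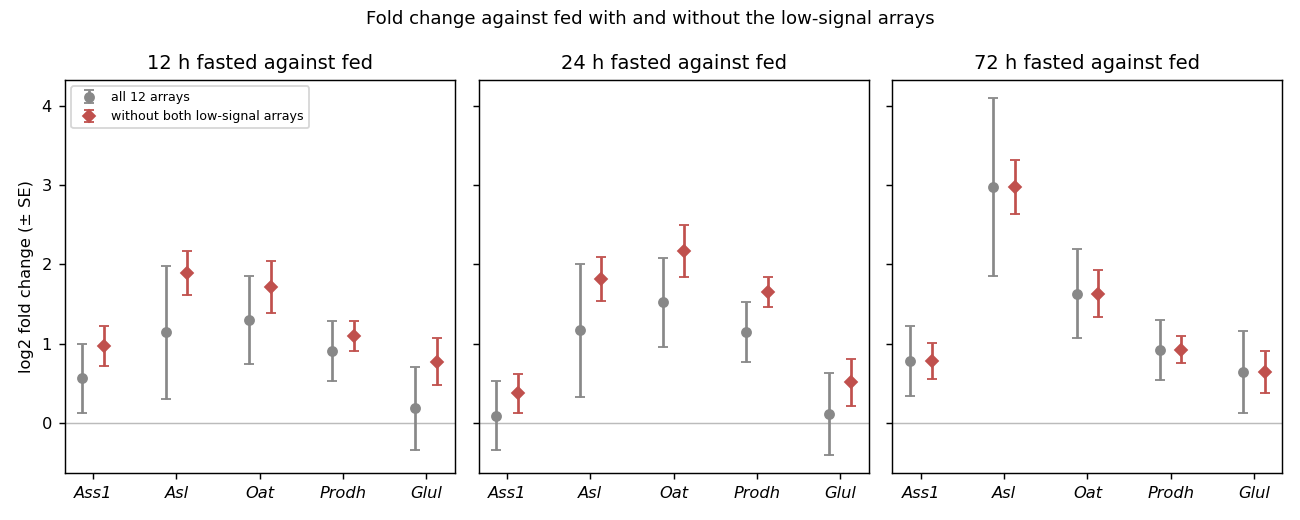
Log2 fold change against fed with its standard error (y axis) for each member (x axis) at 12, 24 and 72 h. Circles are the fit over all 12 arrays and diamonds the fit without both low-signal arrays. At 12 and 24 h the diamonds lie higher and carry shorter bars for all 5 members, and at 72 h only the bars shorten.

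Across the 12 arrays, 0 of the 5 members passed the adjusted threshold with a change of at least 1.4-fold in limma at 12, 24 or 72 h against fed. Of all probes tested, 0.00995%, 0.00497% and 0.00996% passed. At an unadjusted p under 0.05, 2 members passed at 12 h and 2 at 24 h (Oat and Prodh both times), and 3 at 72 h (Asl, Oat and Prodh), where the shares over all probes were 3.89%, 3.06% and 1.56%. Without the low-signal arrays, 3 of 5 members rose at each time, namely Asl, Oat and Prodh, against 1.84%, 5.58% and 0.706% of all probes called in that direction. At 72 h Asl entered this count with 1 usable array. The 12 h and 24 h arrays left in this fit were all of the second quantification day, which held no fed array. The same 3 rose at 24 and 72 h with marked spots kept (6.24% and 0.695% of all probes), and at all 3 times with loess normalization (2.47%, 3.19% and 0.870%). When the arrays were instead weighted by their estimated quality, 4 of 5 members rose at each time, Ass1 in addition, against 6.13%, 6.58% and 3.08% of all probes. The low-signal arrays had weights of 0.0367 and 0.0987, so that the weighted fit came close to leaving them out. Fed replicate 2 had the highest weight, 7.13, with 24.7% of its probes marked as outliers. The 3 comparisons share the fed arrays. By size of the log2 fold change over all 12 arrays, Oat ranked above 99.8%, 99.9% and 99.8% of the tested probes and Asl above 99.6%, 99.8% and 99.9%. Prodh ranked above 98.9%, 99.8% and 99% of them, Ass1 above 94.4%, 64.1% and 98.5%, and Glul above 71%, 67.9% and 97.6%.

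Among the 4 members with at least 2 usable spots in both groups, the 72 h arrays lay wholly above the fed arrays for Ass1, Oat and Prodh, and with marked spots kept for Asl as well, that is 4 of 5. The shares over all probes were 9.27% and 7.92%. With both low-signal arrays left out, all 7 remaining fasted arrays lay above all fed arrays for Asl, Oat and Prodh, a separation that 5.51% of all probes showed. Only Prodh separated from fed at 12 h (6.34% of all probes) and at 24 h (6.36%) when the low-signal arrays were included.

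For the average over the 3 fasting times against fed, 0 of 5 members passed, and 0.00996% of all probes did. The log2 difference was 1.76 ± 0.76 for Asl, 1.49 ± 0.46 for Oat, 0.99 ± 0.31 for Prodh, 0.48 ± 0.37 for Ass1 and 0.31 ± 0.42 for Glul. At an unadjusted p under 0.05 Oat and Prodh passed, against 2.53% of all probes, and both passed also at an unadjusted p under 0.01 with a rise of at least 1.4-fold, against 0.304%. Omitting the low-signal arrays, Asl (4.69-fold), Oat (3.58-fold) and Prodh (2.33-fold) rose, with adjusted p of 0.00436, 0.00465 and 0.00218 and with 3.90% of all probes called in that direction. Ass1, at 1.63-fold, had an adjusted p of 0.0558. It rose as the fourth member with marked spots kept (4.14% of all probes), with loess (3.80%) and with array weights (5.15%).

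The steps between time points were tested directly, and 0 of 5 members passed in any of the 3 steps, where 0.00% of all probes did. Over all arrays none of the members reached an unadjusted p under 0.05 in these steps either, against 0.959% of all probes for 24 h against 12 h, 3.41% for 72 h against 24 h and 4.99% for 72 h against 12 h. Asl was 1.81 ± 1.06 higher on the log2 scale at 72 h than at 24 h (adjusted p = 1). Prodh gave a log2 difference of -0.23 ± 0.38 over the same step. Over the 10 other arrays these differences were 1.16 for Asl and -0.72 ± 0.19 for Prodh (limma, adjusted p = 0.0717), and neither passed. The 72 h level of Asl was then 1 usable spot, 4.08, the highest of its group. Its mean over all 3 spots at 72 h was 3.42, against 2.91 at 24 h without the low-signal array. The unadjusted limma p was 0.00276 for Prodh at 72 h against 24 h, and 0.0216 for Prodh and 0.0373 for Ass1 at 24 h against 12 h. The order of time points within a gene, latest highest for Asl and 24 h highest for Oat and Prodh without the low-signal arrays, was therefore not separated by the adjusted test. Ass1 went the other way at the first step, with -0.60 ± 0.25 at 24 h against 12 h and an adjusted p of 0.998.

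Over all 12 arrays quantification day and group overlapped in part. Without the low-signal arrays, every remaining 12 h and 24 h array was of the second day, which held no fed and no 72 h array. In those fits, day cannot be told apart from the contrasts of 12 h and 24 h with fed or with 72 h. On the first day alone, 72 h against fed replicates 2 and 3, the log2 fold change was 0.97 ± 0.27 for Ass1, 1.61 ± 0.38 for Oat, 0.99 ± 0.16 for Prodh and 0.75 ± 0.34 for Glul. Their adjusted p in limma was 0.254, 0.229, 0.136 and 0.424, and 0.0208% of all probes passed upward. Asl had 1 usable spot in each group on that day, which differed by 3.06 with no test. Within the third day the 12 h and 24 h groups were each represented by their low-signal array against fed replicate 1, and the second day held no fed array. With day as a term in the fit, Oat and Prodh kept their sign at 12 and 24 h, whereas the values of Asl (-0.337 and -0.300), Ass1 (-0.324 and -0.799) and Glul (-1.027 and -1.091) turned negative. In that fit the contrast of 12 h and 24 h with fed runs through the low-signal arrays, so that day and low signal cannot be told apart. The same fit called Ass1 and Asl higher at 72 h than at 24 h (4.11% of all probes) and Asl higher at 72 h than at 12 h (8.94%). These steps too are linked through the third day and its low-signal arrays, and with day as a random block 0 members were called in either.

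**Figure D3:**
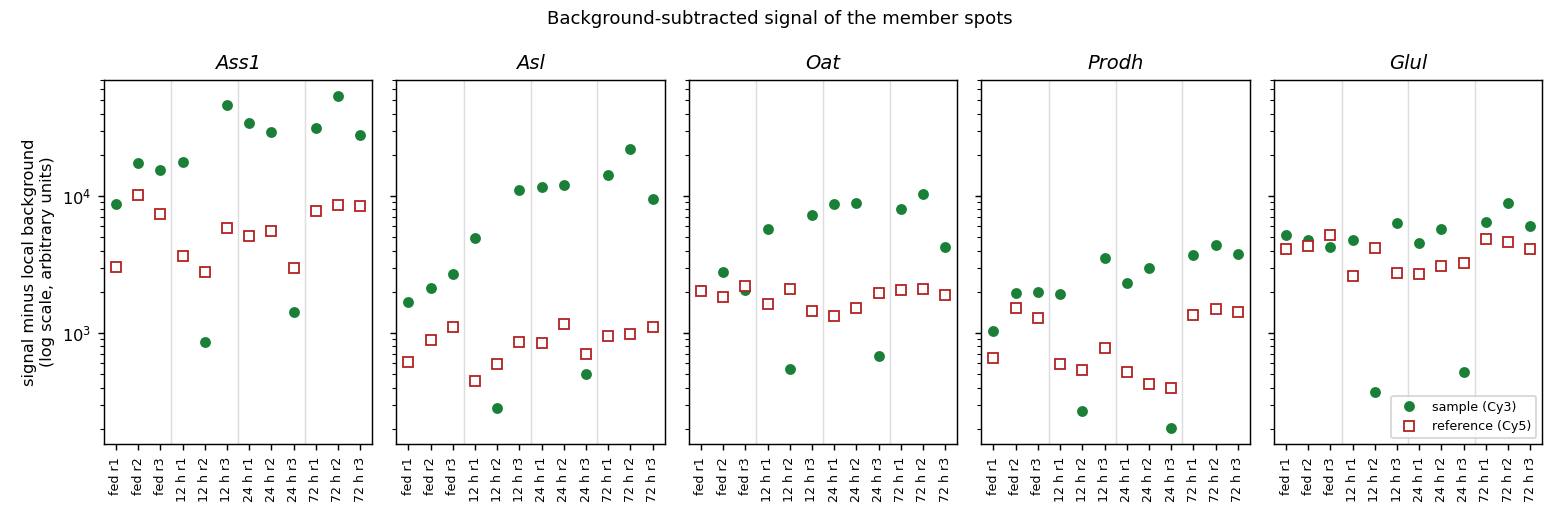
Background-subtracted median signal of each member spot (y axis, log scale, arbitrary units) on each of the 12 arrays (x axis), with sample signals as filled circles and reference signals as open squares. On replicate 2 of 12 h and replicate 3 of 24 h the sample signal of all 5 members drops below every other array's, whereas the reference signal differs less from that of the other arrays, and is lowest of all for Ass1.

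The signals behind these ratios were read in both channels. For Asl the background-subtracted sample signal was 284 and 502 there, against 4970 to 22100 on the other 7 fasted arrays and 1670 to 2700 on the fed arrays. The reference signal of Asl was 591 to 708, 448 to 1160 and 617 to 1110 on the same sets of arrays. For Glul, the sample signal was 369 and 518 on the low-signal arrays, against 4540 to 8870 and 4240 to 5180 on the others, with a reference signal of 3220 to 4200, 2620 to 4860 and 4120 to 5160. Thus Glul, whose sample signals on the fed and the other fasted arrays overlapped, was also far lower there. The sample signal was likewise lower for Ass1 (861 to 1430, against 17800 to 53400), Oat (543 to 682, against 4210 to 10400) and Prodh (203 to 268, against 1920 to 4420). The reference signal of Ass1 was lower there too, at 2770 to 2960, against 3650 to 8630 on the other fasted and 3020 to 10200 on the fed arrays. That of Oat (1970 to 2080) and of Prodh (396 to 540) was within or just below the ranges of the other fasted arrays, at 1340 to 2080 and 428 to 1500. The normalization over channels removes what is common to an array, and its effect on the members' ratios was as given above. The normalized reference channel, which should carry the same RNA on every array, varied over the 12 arrays with an SD on the log2 scale of 0.20 for Prodh, 0.34 for Ass1, 0.62 for Glul, 0.66 for Asl and 0.74 for Oat. The corresponding SD of the sample channel was 0.58, 0.65, 0.57, 1.26 and 1.02. For Glul the SD was 0.60 in the sample and 0.56 in the reference channel without the low-signal arrays, so that both channels varied by a like amount.

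The fall of all members together on the low-signal arrays prompted a comparison relative to Glul on the same array, which was chosen after the values had been seen. Relative to Glul, the log2 ratio of Asl was 1.21, 0.91 and 1.50 in the fed group, 2.54, 1.99 and 2.39 at 12 h, 3.11, 2.22 and 1.90 at 24 h, and 3.45, 3.32 and 2.35 at 72 h. For Oat it was -0.16, 0.36 and 0.14 in the fed group, 1.03, 1.61 and 1.09 at 12 h, 1.99, 1.56 and 1.02 at 24 h, and 1.55, 1.29 and 0.49 at 72 h. For both genes all 9 fasted arrays, low-signal arrays included, lay above all 3 fed arrays, with marked spots kept for Asl. Asl and Oat thus made 2 of the other 4 members, against 0.162% of all probes (0.134% with marked spots kept). Prodh relative to Glul was 0.38, 0.11 and 0.85 in the fed group and overlapped with it at 12 and 72 h, where it was 0.72, 1.97 and 0.83, and 1.00, 0.52 and 0.67, but not at 24 h, where it was 1.34, 1.84 and 1.28. At 24 h 3 of the other 4 members were thus separated from fed, against 1.46% of all probes. Ass1 relative to Glul was 1.25, 0.72 and 1.50 in the fed group and 0.83 to 2.02 in the fasted groups. It overlapped at 24 and 72 h, and at 12 h only through its marked fed spot. On usable spots Ass1, Asl and Oat were separated at 12 h, again 3 of the other 4 members, against 0.564% of all probes. The difference describes unequal log2 ratios of the members on an array and does not show that Glul was constant. It also carries the spread of Glul's reference channel (SD 0.62 on the log2 scale, against 0.57 in the sample channel).

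**Figure D4:**
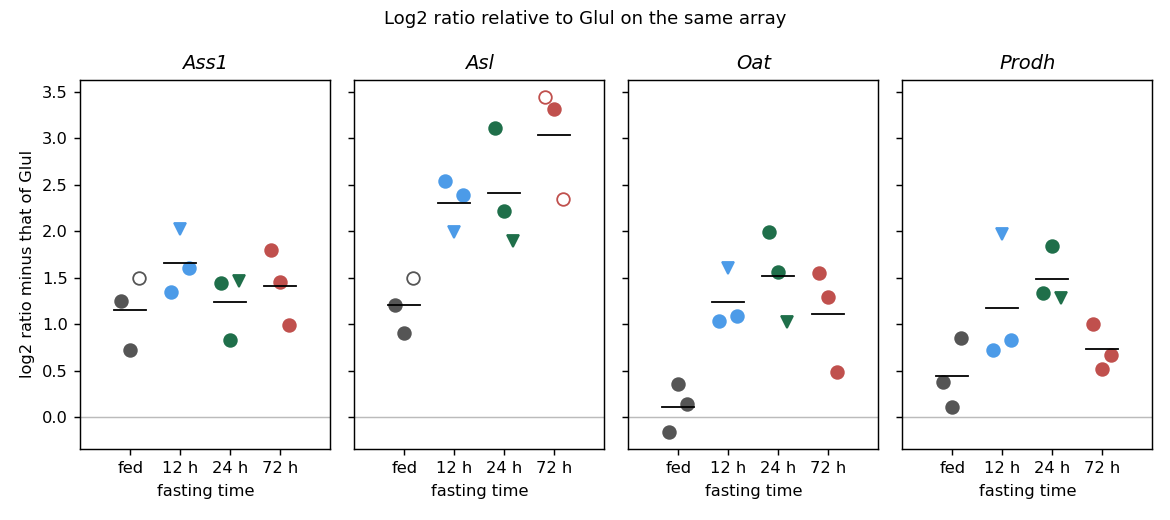
Log2 ratio of each of the other 4 members minus that of Glul on the same array (y axis) against fasting time (x axis). Each point is 1 array, a triangle is a low-signal array, an open circle an outlier-marked spot, and the black line the mean of all 3 spots. Asl and Oat lie above their fed values on all 9 fasted arrays. Ass1 overlaps with fed at 24 and 72 h, and at 12 h only through its marked fed spot.

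The other genes of nitrogen disposal were read from lists of 4 pathways, each gene by its brightest probe in fed liver. Of 13 genes of the urea cycle and its transporters, 6 had a probe named here (Ass1, Asl, Slc25a15, Slc25a13, Slc7a2 and Aqp9), and Cps1, Otc and Arg1, the other enzymes of the cycle, were not analysed here. Across 12 arrays 0 of the 6 were called, and their median log2 fold change was 0.58, 0.52 and 0.74 at 12, 24 and 72 h, against -0.01, 0.00 and -0.01 over all probes. Without the members the median of the remaining 4 was 0.41, 0.52 and 0.44. Without the low-signal arrays the list's median was 1.03, 0.95 and 0.74. With the low-signal arrays left out, 2, 4 and 1 of the 6 rose and 0 fell, with 1.84%, 5.58% and 0.706% of all probes called upward. These counts include the members. Of the remaining 4 genes, 1, 3 and 0 rose in that fit, with a median of 0.82, 0.95 and 0.44. The 1 gene called at 72 h was Asl, which had 1 usable array there. Slc25a15, the mitochondrial ornithine carrier that links the urea cycle to the Oat reaction, gave log2 fold changes of 0.60, 0.62 and 0.97 over all arrays, and its second probe 0.11, 0.69 and 1.24. Over the 10 arrays it rose at 24 h, by 1.23 on the log2 scale (adjusted p = 0.022). Slc7a2, a transporter of arginine and other cationic amino acids, gave 0.84, 1.22 and 0.70 over all arrays, and rose by 1.49 at 12 h (adjusted p = 0.0181) and 2.08 at 24 h (0.00249) without the low-signal arrays. Slc25a13, the mitochondrial carrier that exports aspartate for the Ass1 reaction, rose there at 24 h by 0.67 (adjusted p = 0.0353).

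Among genes of glutamine, glutamate and transamination, 18 of 25 had a named probe, the uncertain Glul probe among them, and 0 were called over all arrays. Their median log2 fold change was -0.04, -0.01 and 0.10. In the fit without the low-signal arrays the median was 0.32, 0.13 and 0.10, and 1, 2 and 1 of them rose and 0 fell, against 1.84%, 5.58% and 0.706% of all probes called upward and 1%, 3.86% and 0.139% downward. Slc38a4, a carrier of neutral amino acids, was by brightest probe the one that rose at all 3 times in that fit. It rose by 1.31, 1.32 and 1.43 (adjusted p = 0.0189, 0.00886 and 0.00875), and read 0.66, 0.83 and 1.43 over all arrays. Its second probe read -0.56, -0.02 and 1.09 over all arrays and 0.57, 0.61 and 1.09 without the low-signal arrays. Got1, the cytosolic aspartate aminotransferase, read 1.37, 1.69 and 1.95 over all arrays and 2.33, 2.40 and 4.10 by its second probe. By its brightest probe it rose at 24 h over the 10 arrays of regular signal, by 2.16 (adjusted p = 0.0193). The second probe of Got1 read 2.88, 3.16 and 4.10 over those arrays. Counted over all probes of the list, 2, 3 and 3 rose at 12, 24 and 72 h, of 32, 32 and 31 tested.

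Of 23 genes of proline, ornithine and arginine metabolism, 18 had a named probe. The list as a whole had a median log2 fold change of -0.27, -0.07 and 0.03, and 0 were called over all arrays, so that Oat and Prodh stood at its upper end. Leaving the low-signal arrays out, the median was -0.06, -0.10 and 0.03, and 2, 3 and 2 rose and 1 fell at each time, against the shares of all probes given for the list before. Apart from Oat and Prodh, the risen gene was Azin1, the antizyme inhibitor, at 24 h (1.12, adjusted p = 0.0079), which fell at 72 h (-0.85, adjusted p = 0.0333). Srm, spermidine synthase, fell at 12 h (-0.53, adjusted p = 0.047) and Gatm, which starts creatine synthesis from arginine, at 24 h (-0.75, adjusted p = 0.0154). Of 25 genes that release ammonia from amino acids or nucleotides, 15 had a named probe, with medians of 0.00, 0.11 and 0.07 and 0 called, and medians of 0.00, 0.17 and 0.07 without the low-signal arrays. Gldc, of the glycine cleavage system, read 0.62, 0.84 and 0.61, and its second probe, named by a clone in some files, -0.21, 0.21 and -0.04. In the fit of 10 arrays Gldc rose at 24 h (1.43, limma adjusted p = 0.00949), while its second probe read 0.14, 0.38 and -0.04. Cth, the cysteine-forming cystathionine lyase, was also called at 24 h, at 1.48 ± 0.39. Its standard error was 0.32 at 12 h and 0.29 at 72 h, and the larger one at 24 h corresponds to 1 usable array. Of all probes, 5.58% were called upward at 24 h. In this list 0 rose at 12 and 72 h.

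**Figure D5:**
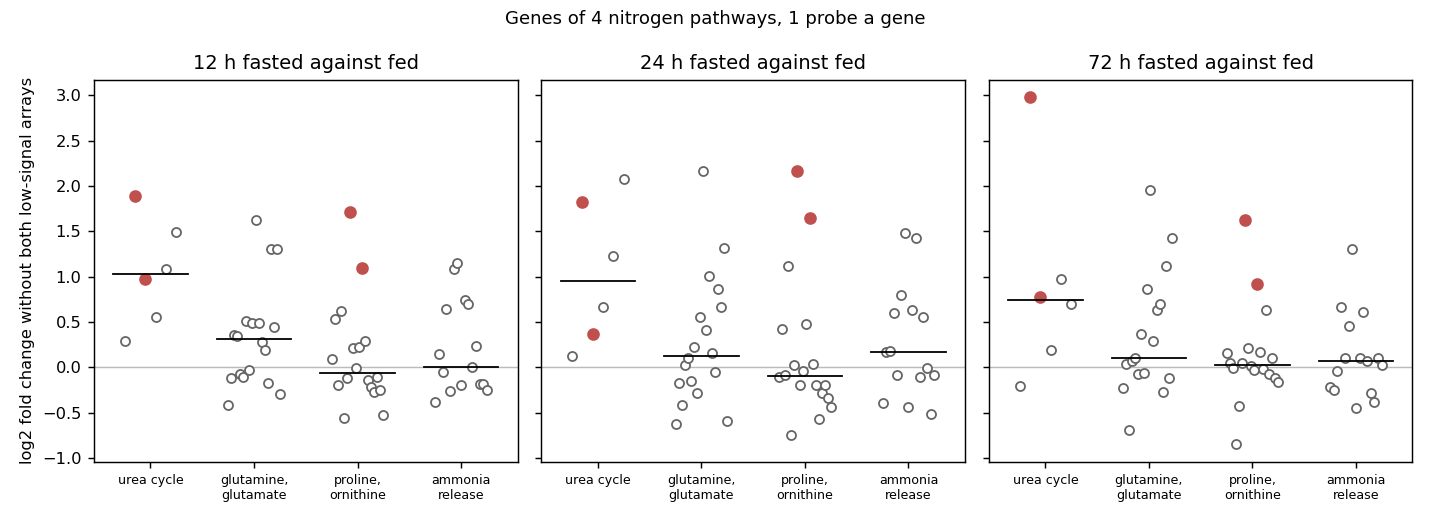
Log2 fold change against fed without both low-signal arrays (y axis) of the genes of 4 nitrogen pathways (x axis), 1 point a gene, at 12, 24 and 72 h. Filled points are Ass1, Asl, Oat and Prodh, open points the other genes, and the black line the median of the list. Asl lies highest in the urea-cycle list at 12 and 72 h, and Oat is the highest and Prodh the next in the proline and ornithine list at each time.

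Of the other pericentral markers on the array, Cyp2e1 read -0.13, -0.14 and -0.14, Tbx3 0.07, 0.11 and 0.00 and Aldh1a1 0.45, 0.06 and -0.43 as log2 fold changes at 12, 24 and 72 h, and none was called. Without the low-signal arrays Cyp2e1 read -0.09, -0.02 and -0.14, Tbx3 -0.09, 0.06 and 0.00 and Aldh1a1 0.45, 0.43 and -0.43, and again none was called. Pck1, a gluconeogenic enzyme of periportal hepatocytes, read 0.98, 0.79 and 0.86 over all arrays and rose at all 3 times without the low-signal arrays, by 0.98, 1.08 and 0.86 (adjusted p = 0.0183, 0.00666 and 0.0259).

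Among themselves the members varied together to unequal degrees, which is given as a description over arrays that share the reference, the groups and the low-signal pair. The correlation of log2 ratios was 0.91 between Ass1 and Asl over 9 arrays, 0.92 between Asl and Oat over 9, 0.89 between Oat and Prodh over 12, and 0.52 between Ass1 and Prodh over 11. With Glul it was 0.79 for Ass1 over 11 arrays, 0.81 for Asl over 9, 0.72 for Oat over 12 and 0.62 for Prodh over 12. Without the low-signal arrays the first 4 were 0.86 and 0.90 over 7 arrays, 0.88 over 10 and 0.35 over 9, and those with Glul 0.62 over 9, 0.84 over 7, 0.75 over 10 and 0.67 over 10. Genes with a pattern most like that of each member over the arrays with a value in both were Rab30 (0.97), Sec14l4 (0.97) and Dapk1 (0.96) for Asl over 9 arrays, and Cth (0.95 over 10 arrays) and Eif1 (0.93 over 11) for Ass1. For Oat they were Ncoa4 (0.97 over 9 arrays), Nolc1 (0.96 over 10) and Slc29a1 (0.94 over 12), for Prodh Ubap1 (0.95), Tfb2m (0.93) and Hcfc1 (0.93) over 12, and for Glul Ndufs3 (0.98 over 11) and Col18a1 (0.98 over 12). A correlation above 0.9 was reached by 3.6% of the compared probes with Glul, but by 0.141% with Ass1, 1.01% with Asl, 0.215% with Oat and 0.239% with Prodh. Without the low-signal arrays this order did not hold, since the shares were 0.957% for Glul, 0.116% for Ass1, 1.71% for Asl, 0.957% for Oat and 1.88% for Prodh, and of the genes named here Ubap1, for Prodh, was the 1 that stayed among the nearest 3.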

How the data were processed

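Liver RNA of 12 pools in 4 groups was hybridised to 2-colour Agilent oligonucleotide arrays, and groups were taken from the deposited titles. The deposited scanner files, per their file headers, contain intensities, the median brightness of each spot and its local background in each channel, not normalized, together with log10 ratios of reference over sample that the scanner software background-subtracted and dye-normalized. In the deposited value table the sign of these log10 ratios is reversed. The authors' own analysis subtracted the background from the medians, normalized by quantiles, screened outliers with a reference-channel ANOVA and used a Split-Factor ANOVA, a program not used here.

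From the median intensities, background was corrected with limma's normexp (offset 50) over all spots. After 1075 control and 91 retired of 21446 spots had been left out, the 20280 probes were quantile-normalized over 24 channels, and the log2 ratio of sample over reference was taken. Outlier-marked spots were missing (24.7% of probes on fed replicate 2, 14.1% on fed replicate 3, up to 6.29% elsewhere). For a test, both groups needed a value, and the sample signal had to be well above background throughout 1 group or more. Differences were fitted with limma 3.58.1 in R 4.3.3 (lmFit and eBayes, 4 groups, 1 spread per probe) and called when the p adjusted by Benjamini-Hochberg over every tested probe was under 0.05 and the change was 1.4-fold or more. Fold intervals use the moderated t distribution. In fits with a block, standard errors are approximate where a spot is missing. The code was tested on simulated data. The number of 3 arrays a group limits the precision.

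A current symbol was found for 12219 probes, of which 9946 through the deposited gene numbers, 136 through accessions, 443 through symbols and 1694 through synonyms in RefSeq's gene table. Named are the 5 members, other probes named as a member, the genes of the 4 lists that differed by at least 1.4-fold in 1 direction at all 3 times by their brightest probe or were called, and for each member the 3 genes with the highest correlation. Some results that these rules cover are not reported here. Genes called only without the low-signal arrays (Slc25a13, Azin1, Srm, Gatm and Cth) were named after their values had been seen. The members, the lists and the low-signal arrays to be left out were chosen with earlier results of these data known. Alternatives covered the normalization, the background, the ratio's source, the reference channel, outlier marks, the dim-probe filter, array weights, the quantification day, the replicate number, the threshold, the probe choice and each array left out.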

Additional observations from a re-analysis of the deposited data

How the results depend on the processing

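With every array left out in turn, 0 members were called in each of the 7 comparisons. The log2 fold change against fed at 12, 24 and 72 h then ranged from 0.337 to 0.970, from -0.200 to 0.371 and from 0.580 to 0.971 for Ass1, from 0.642 to 1.887, from 0.637 to 1.820 and from 2.909 to 3.057 for Asl, from 1.024 to 1.714, from 1.100 to 2.167 and from 1.355 to 1.943 for Oat, from 0.750 to 1.096, from 0.769 to 1.648 and from 0.836 to 1.063 for Prodh, and from -0.201 to 0.769, from -0.179 to 0.506 and from 0.351 to 0.916 for Glul. Without the only usable 72 h spot of Asl no value could be had at 72 h. At 12 and 24 h the highest value of each member came without the low-signal array of that time.

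With array weights 4, 4 and 4 members were called at 12, 24 and 72 h (Ass1, Asl, Oat and Prodh), and 4 for the mean of the fasted groups. Without both low-signal arrays it was 3, 3 and 3, and 3 for the mean. With outlier-marked spots kept as well, chosen after seeing the data, it was 4, 3 and 3, and 4 for the mean, and with loess in place of quantile normalization, also chosen later, 3, 3 and 3, and 4 for the mean. At an unadjusted p under 0.05, chosen later too, it was 2, 2 and 3, and 2 for the mean, and at an unadjusted p under 0.01 with 1.4-fold it was 2 for the mean. With quantification day as a fixed block, 2 members were called for 72 h against 24 h (Ass1 and Asl) and 1 for 72 h against 12 h (Asl). The other alternatives, including loess, the scanner software's ratio, the sample channel alone, plain background subtraction and no filter on dim probes, called 0 members over all arrays.

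Values turned negative with day as a fixed block for Ass1 (-0.324 at 12 h and -0.799 at 24 h), Asl (-0.337 and -0.300) and Glul (-1.027 and -1.091), and with day as a random block for Ass1 (-0.041 and -0.515) and Glul (-0.650 and -0.714). Between single arrays of the same day, with no test, they were -0.449 and -0.674 for Ass1, -0.440 and -0.197 for Asl and -1.225 and -0.892 for Glul. With control spots kept in the quantile normalization Glul at 24 h was -0.022. The cause was not tested. Oat and Prodh kept their sign under every alternative run.

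The replicate numbers did not pair the arrays, since deviations of same-numbered arrays correlated between -0.600 and 0.593 (median -0.155, 18 pairs), against a median of 0.206 for other pairs. With the replicate number as a block, 0 members were called in each comparison, and the log2 fold change of Oat was 1.303, 1.521 and 1.635. With 3 pools a group and 2 low-signal arrays, neither a lack of change nor the order of time points is settled by these values.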
